A study of Mus musculus with 8 samples.

Results

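The 10 genes studied here encode heavy chains of class II myosin and were followed in mouse atria after loss of the chromatin remodeller CHD4. They were chosen by symbol from a list of sarcomeric, skeletal-type, non-muscle and smooth muscle chains (Myh6, Myh7, Myh7b, Myh1, Myh2, Myh4, Myh9, Myh10, Myh11 and Myh14), and all 10 were found among the 54532 genes of the deposited count table. Bulk RNA sequencing measured messenger RNA of whole atria in 8 libraries from Chd4flox/flox mice injected on postnatal day 2. The 4 KO libraries came from mice given AAV9:Nppa-Cre and the 4 control libraries from mice given AAV9:Nppa-EGFP. The floxed Chd4 alleles were thus carried by both groups, while only KO received Cre and only control received EGFP, so effects of these proteins and those of losing Chd4 cannot be told apart. The Nppa promoter drives expression mainly in atrial cardiomyocytes, and other cell types of the dissected atria were not the target of the vector. Neither how old the mice were at dissection, nor which exons were floxed, nor how many mice made a library was given in the sources used here. The labels number the samples without calling them separate mice, and the p-values below therefore rest on a spread between samples that may be technical.

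A myosin II heavy chain holds the motor domain that binds actin and splits ATP, a neck that carries an essential and a regulatory light chain, and a coiled-coil tail through which the molecules assemble into filaments. In the adult mouse heart the fast alpha chain encoded by Myh6 predominates, and the slow beta chain encoded by Myh7 is known as a fetal chain that returns in ventricles under load. Fibroblasts, endothelium and other non-muscle cells use the non-muscle II chains, and vascular smooth muscle uses Myh11.

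Myh6 was lower in KO, as were Myh2 and Myh14, while Myh9 and Myh10 were higher. Of the 10 genes, 3 fell, 2 rose and 5 did not pass the test, and all 10 were tested. The test was edgeR's quasi-likelihood test of KO against control over 18033 genes, with Benjamini-Hochberg adjustment over all of them and a call at an adjusted p under 0.05. Every adjusted p of a gene given below comes from this test unless another is named. Over all tested genes 27.9% were called, 14.8% higher and 13.1% lower. In 5 of the 10 genes the 4 KO and 4 control values did not overlap, against 29.2% of all tested genes. Among these, Myh1 and Myh2 were barely apart at KO 2, and both overlapped as a percent of all counts. The median log2 fold change of the 10 was -0.56, beside 0.01 over all tested genes. RLE factors, upper-quartile factors and library totals without scaling factors each left 2 members higher and 3 lower, although the split over all genes moved from 2677 higher and 2355 lower to 3696 and 1580 with library totals alone.

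**Figure D1:**
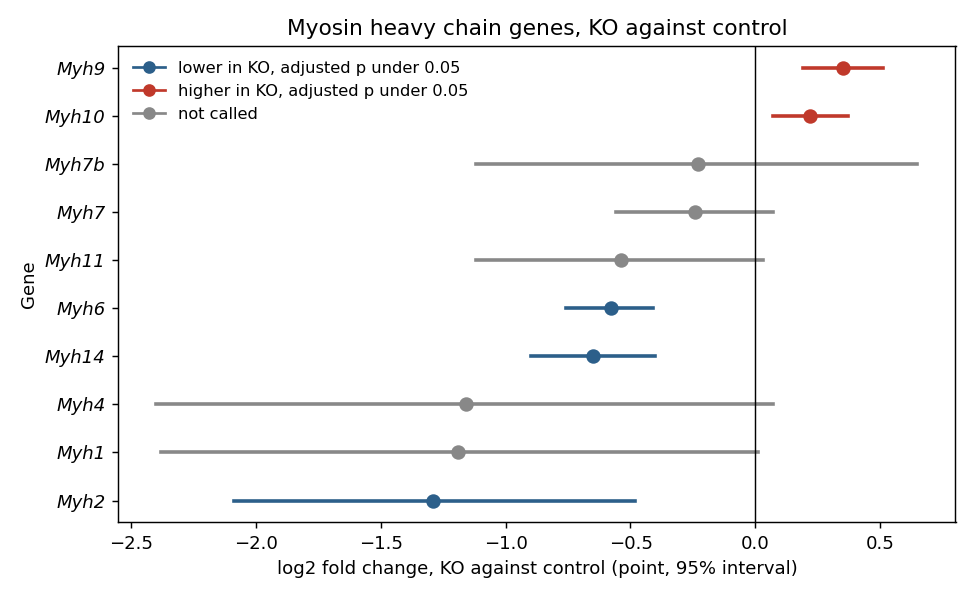
Log2 fold change of KO against control for each of the 10 genes (point) with its 95% confidence interval (bar), from the edgeR fit on 4 KO and 4 control libraries. Myh6, Myh14 and Myh2 lie left of 0 at -0.58, -0.65 and -1.29, Myh9 and Myh10 lie right of it at 0.35 and 0.22, and the widest intervals belong to Myh1 and Myh4.

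Total counts were 34002292 to 38228982 per KO library and 39804625 to 40588007 per control library. In CPM (counts scaled to 1e6 per library with TMM factors), Chd4 ranged from 169 to 200 in KO and from 278 to 308 in control, a log2 fold change of -0.66 (SE 0.06, adjusted p = 1.86e-05), so Chd4 transcript was still counted in every KO library. Which exons were deleted is unknown here, and the level over the whole gene checks the labels only to that extent. The atrial light chains Myl7 and Myl4 stood at 1619 to 4391 CPM and 3344 to 6375 CPM over the 8 libraries, all of which are labelled as right and left atria of mixed cells. The first principal component (60% of the variance) separated the groups, and the second (20.3%) set KO 2 and control 2 apart. The Y-linked gene Ddx3y stood at 0.706 to 0.858 CPM in KO 2, control 1 and control 2 and at 105 to 124 CPM in the other 5 libraries. Library name prefixes were never shared between groups, so prefix and group cannot be told apart.

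The cardiac alpha chain Myh6 (ENSMUSG00000040752, chr14:54941921-54966927, minus strand, GRCm38 and GENCODE M21) and the beta chain Myh7 (ENSMUSG00000053093, chr14:54970684-54994626, minus strand) lie head to tail on chromosome 14, and each holds a microRNA in an intron. Myh7b (ENSMUSG00000074652, chr2:155611212-155634307, plus strand), a slow-type chain of heart and slow muscle, holds another. The mature products of these 3 introns are shown because their hosts are members of the set and their seeds can be compared. Lower case is the RefSeq sequence (GRCm38.p6), and capitals mark the seed, bases 2 to 8.
miR-208a-3p, host Myh6: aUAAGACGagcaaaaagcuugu
miR-208b-3p, host Myh7: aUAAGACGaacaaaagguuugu
miR-499-5p, host Myh7b: uUAAGACUugcagugauguuu
The seeds of miR-208a-3p and miR-208b-3p were identical, and that of miR-499-5p differed from them in its last base. Stretches upstream of the RefSeq starts of Myh6 and Myh7 are shown next because they held the letters of the MCAT motif of muscle genes. The match lay in the Myh6 window of 250 bases before the RefSeq start and in 1 of the 2 such windows of Myh7. The other Myh7 window, from a RefSeq start further downstream, held no match. The stretches are chr14:54966781-54966840 for Myh6 and chr14:54994795-54994854 for Myh7, both read on the minus strand, with the match in capitals.
Myh6: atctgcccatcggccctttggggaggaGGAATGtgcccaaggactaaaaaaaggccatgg
Myh7: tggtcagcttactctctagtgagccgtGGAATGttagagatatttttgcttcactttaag
The match began 206 bases before the RefSeq start of Myh6 and 201 before the upstream RefSeq start of Myh7. The GENCODE span of Myh6 given above begins further upstream than its RefSeq start, and the printed Myh6 stretch lies inside that span. The motif was searched as CATTCC on both strands and stood in 12.6% of all 32851 promoter windows, Myh1, Myh4 and Myh10 among them, so the match is a description of these letters. T-box letters (AGGTGT, either strand, in 11.8% of windows) were found in neither of these windows. Of the 9 members with a RefSeq window, Myh10 alone held them, overlapping the letters of an E-box (CANNTG). RefSeq windows were matched for all members other than Myh11.

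Myh6, the alpha chain of the cardiac thick filament, fell in KO. In KO 1 to KO 4 it stood at 29855, 24294, 27163 and 26651 CPM, and in control 1 to control 4 at 40290, 40456, 37851 and 43355 CPM. The highest KO library lay well below the lowest control, so the groups did not overlap. The mean fell to 26991 ± 2282 CPM (SD, n = 4) from 40488 ± 2252 CPM (SD, n = 4), a log2 fold change of -0.58 (SE 0.08, 95% interval -0.76 to -0.41) or 1.5-fold lower, with an adjusted p of 0.000207. In bulk tissue, fewer cardiomyocytes and less Myh6 RNA per cardiomyocyte cannot be told apart. Of 8 cardiomyocyte markers 6 also fell and 1 (Pln) rose (87.5% called, beside 27.9% over all tested genes). The summed level of the 8 was 20402 to 27330 CPM in KO and 28566 to 32658 CPM in control. Of these markers, Myl7 (log2 fold change -1.21) and Myl4 (-0.71) fell more than Myh6, and the others fell less or, for Pln, rose (0.28). Set against the mean log2 level of the 8 markers, Myh6 was 1.14-fold lower in KO, a value that depends on the markers listed. That log2 ratio was 3.62, 3.63, 3.70 and 3.67 in KO 1 to KO 4 and 3.77, 3.94, 3.76 and 3.9 in control, without overlap (difference -0.19). By an exact two-sided permutation test over libraries its p was 0.0286, the smallest that 4 against 4 can give. After adjustment over the 13 shares and ratios computed it was 0.0743, which does not pass 0.05. Every ratio at the smallest p had this same adjusted p, so full separation of the groups did not suffice to pass in this family.

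Myh6 alone made up most of the heavy chain transcripts. The 10 genes together took 2.69% to 3.07% of all counts in KO and 3.77% to 4.33% in control, and Myh6 held 95.3% to 96.8% and 96.8% to 97.2% of those counts. The library with the lowest Myh6 share was KO 2, in which the skeletal-type chains were high.

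Myh7, the slow beta chain, did not pass the test. It stood at 220, 211, 256 and 228 CPM in KO and at 324, 302, 193 and 265 CPM in control. Control 3 was the lowest of all 8 libraries and controls 1 and 2 the highest, and all 4 KO values lay inside the control range. The log2 fold change was -0.24 (SE 0.14, 95% interval -0.56 to 0.07, adjusted p = 0.235), an interval that leaves room for a fall of up to 0.56 and a rise of up to 0.07. The call rested on the control libraries: without control 3 the log2 fold change was -0.38 (adjusted p = 0.00841), against controls 1 and 2 alone -0.47 (adjusted p = 0.00521), and against controls 3 and 4 alone -0.03 (adjusted p = 0.912). Controls 1 and 2 were also the controls low in Ddx3y, and with Y-linked expression as a covariate the log2 fold change was -0.17 (adjusted p = 0.414).

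As a share of the counts of Myh6 and Myh7 together, Myh7 took 0.733%, 0.863%, 0.934% and 0.849% in KO and 0.799%, 0.742%, 0.508% and 0.608% in control. The means were 0.845% ± 0.0833 (SD, n = 4) and 0.664% ± 0.131 (SD, n = 4), and the values overlapped. The difference of 0.18 percentage points had an exact permutation p of 0.0857 (adjusted p = 0.186). Myh7 thus stayed below 1% of the pair in all 8 libraries. Exact copies of sequence limit this share: 22.6% of the 50-base windows of the Myh6 transcript recur in that of Myh7, and 11.4% of its 100-base windows. The sources used here do not say how reads that fit both genes were counted.

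Beside Myh7 lay Mhrt, a long noncoding RNA transcribed from the opposite strand of the locus, and the Mir208b hairpin. Mhrt stood at 69.9, 66.3, 90.3 and 76.3 CPM in KO and at 95.3, 84.5, 51.1 and 69.8 CPM in control (log2 fold change 0.01, SE 0.19, adjusted p = 0.977). As with Myh7, controls 1 and 2 were high and control 3 low. Counts at the Mir208b hairpin ran from 16.1 to 20.2 CPM in KO and from 12.3 to 25.1 CPM in control (log2 fold change -0.11, SE 0.18, adjusted p = 0.692). Those at the Mir208a hairpin in Myh6 were 0.677 to 1.04 CPM in KO and 0.587 to 1.14 CPM in control (adjusted p = 0.763). These are counts over the hairpins in libraries of messenger RNA, and they are not read as levels of the mature microRNAs. Mir499 had 0 counts in all 8 libraries, below the 0.0744 to 0.0885 CPM that 3 counts are worth, a limit that covers counting error only.

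The log2 ratio of Mhrt counts to Myh7 counts, not corrected for gene length, was higher in every KO library than in any control. It was -1.66, -1.67, -1.5 and -1.58 in KO and -1.77, -1.84, -1.92 and -1.93 in control, a 1.2-fold difference (0.26 on the log2 scale, exact permutation p = 0.0286, adjusted p = 0.0743). Per kilobase of exon, mean Mhrt stood above mean Myh7, at 62.4 against 26.6 CPM in KO and 61.9 against 31.5 CPM in control. The count ratio of Mir208b to Myh7 overlapped between groups (difference 0.15, exact permutation p = 0.143). Exons of Mhrt and Myh7 share 484 bases on opposite strands, which is 39.9% of the exon bases of Mhrt and 5.62% of those of Myh7. Other antisense genes share 523 and 142 exon bases with Myh7. Without a known strand setting the reads over these bases cannot be told apart.

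**Figure D2:**
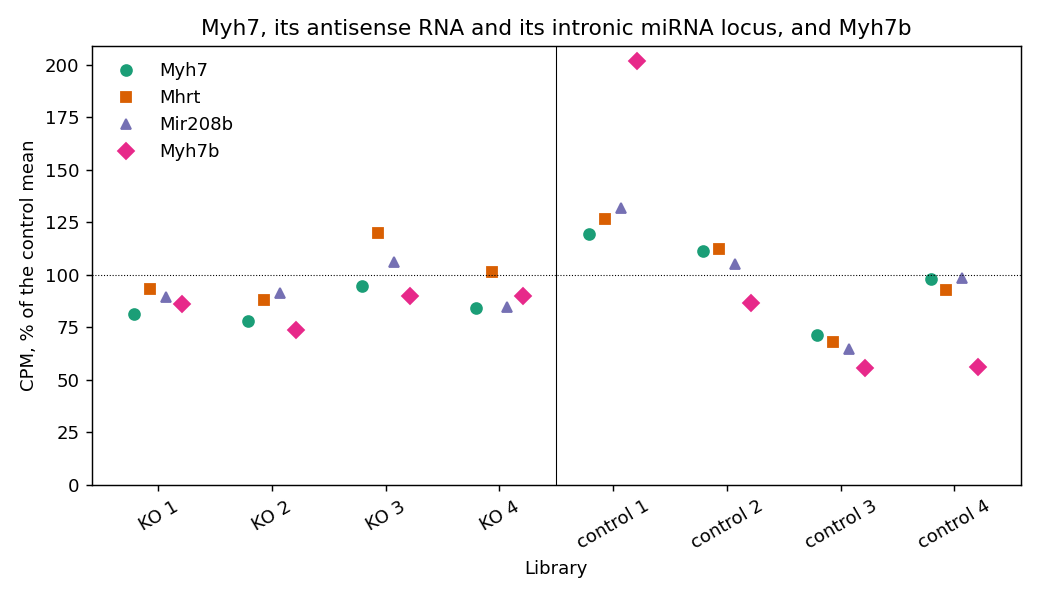
Level of Myh7, Mhrt, Mir208b and Myh7b in each library (x axis) as a percent of the control mean in CPM (y axis, from 0). Myh7, Mhrt and Mir208b are high in control 1 and low in control 3, and the KO libraries lie within the control range; Myh7b has 1 high library, control 1, at 9.52 CPM.

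Myh7b was low throughout and did not pass the test. It stood at 4.07, 3.47, 4.25 and 4.25 CPM in KO and at 9.52, 4.08, 2.63 and 2.65 CPM in control. The KO libraries lay close together inside a wide control range that control 1 opened upward. The log2 fold change was -0.23 (SE 0.39, adjusted p = 0.7) and turned to 0.36 without control 1 (adjusted p = 0.228). Of 6 listed markers of ventricular cardiomyocytes, 3 (Myl2, Irx4 and Fhl2) were also highest in control 1, and the other 3 (Hey2, Lbh and Kcne1) were highest in a KO library. Myl2, the ventricular regulatory light chain, stood at 268 CPM in control 1 and at 19.5 to 44.9 CPM in the other controls, against 3.6 to 65.8 CPM in KO. Irx4, a ventricular transcription factor, stood at 3.2 CPM in control 1 and at no more than 0.403 CPM elsewhere, with 0 in KO 3, KO 4 and control 3. The summed level of the 6 was 358 to 488 CPM in KO and 488 to 879 CPM in control. Fhl2 alone gave 211 to 274 CPM of that sum in KO and 344 to 480 CPM in control. Of the 5 tested, 1 rose and 1, Fhl2, fell (40% called, beside 27.9% over all tested genes). The part of these 6 genes in the values of Myh7 and Myh7b was not tested.

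Myh2, Myh1 and Myh4 encode the fast chains of skeletal muscle, types 2A, 2X and 2B, and stand in a row on the plus strand of chromosome 11. Myh2 (ENSMUSG00000033196) spans chr11:67171027-67197517, Myh1 (ENSMUSG00000056328) chr11:67200052-67224575 and Myh4 (ENSMUSG00000057003) chr11:67238029-67260446. Stretches of 90 bases upstream of each are shown because the 3 genes moved together between libraries and their promoter windows share a run of 20 identical bases, given in capitals. The stretches are chr11:67170837-67170926 for Myh2, chr11:67199877-67199966 for Myh1 and chr11:67237589-67237678 for Myh4, all on the plus strand (RefSeq, GRCm38.p6).
Myh2: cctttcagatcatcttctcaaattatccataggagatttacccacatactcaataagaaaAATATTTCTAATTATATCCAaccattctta
Myh1: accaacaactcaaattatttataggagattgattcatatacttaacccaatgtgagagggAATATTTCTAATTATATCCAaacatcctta
Myh4: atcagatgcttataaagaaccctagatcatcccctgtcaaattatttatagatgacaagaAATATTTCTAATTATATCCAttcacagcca
The shared run began 130 bases before the RefSeq start of Myh2, 165 before that of Myh1 and 163 before that of Myh4. Of all 32851 promoter windows it stood in 3 (0.00913%), those of these 3 genes. A match to the MEF2 motif, searched on both strands and found in 2.92% of windows, lay 211 bases before the start of Myh1 and 182 before that of Myh4, in both overlapping TATA letters (TATAAA, read on the other strand). Myh4 also held a CArG match, found in 1.47% of windows. These are letters in a window and not measured binding.

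All 3 fast chains were low in KO 1, KO 3 and KO 4 and near the control level in KO 2. Myh4, the 2B chain, stood at 122, 327, 82.3 and 73.6 CPM in KO and at 301, 378, 351 and 327 CPM in control. Myh1, the 2X chain, stood at 37.2, 94.9, 24.2 and 22.1 CPM in KO and at 95.3, 104, 101 and 106 CPM in control. Myh2, the 2A chain, stood at 2.48, 6.08, 2.32 and 1.68 CPM in KO and at 8.56, 6.10, 7.86 and 8.25 CPM in control. KO 2 overlapped the controls for Myh4 and fell just short of the lowest control for Myh1 and Myh2. KO 2 held 96.5%, 93.4% and 79% of the control mean for Myh4, Myh1 and Myh2. The mean of the other 3 KO libraries held 27.3%, 27.4% and 28%.

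Of the 3, only Myh2 was called in the fit on all 8 libraries. Its mean fell to 3.14 ± 1.99 CPM (SD, n = 4) from 7.69 ± 1.1 CPM (SD, n = 4), 2.44-fold lower (log2 fold change -1.29, SE 0.36, adjusted p = 0.0255). Myh1 had a log2 fold change of -1.19 (SE 0.49, 95% interval -2.38 to 0.01, adjusted p = 0.131) and Myh4 of -1.16 (SE 0.51, 95% interval -2.4 to 0.07, adjusted p = 0.149). The log2 fold changes of the 3 differed by less than their errors, so the call on Myh2 does not set it apart from the others. KO 2 decided the calls on Myh1 and Myh4, while Myh2 was called with and without it. Without KO 2, the log2 fold changes were -1.83 for Myh2 (adjusted p = 7.19e-05), -1.87 for Myh1 (adjusted p = 0.000108) and -1.87 for Myh4 (adjusted p = 0.000144). KO 2 was also the KO library low in Ddx3y. With Y-linked expression as a covariate the adjusted p was 0.0163 for Myh2, 0.0916 for Myh1 and 0.0951 for Myh4. The call on Myh2 held in 12 of 20 alternatives. It was lost without KO 1 (adjusted p = 0.0713), KO 3 (adjusted p = 0.0716), control 1 (adjusted p = 0.0582), control 3 (adjusted p = 0.0571) or control 4 (adjusted p = 0.0597). It was also lost with no filter on low counts (adjusted p = 0.116) and against controls 1 and 2 alone (adjusted p = 0.133) or controls 3 and 4 alone (adjusted p = 0.0923).

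The proportions of the 3 fast chains within a library overlapped between groups. Myh4 took 75.8% ± 0.423 (SD, n = 4) of their counts in KO and 75.5% ± 1.61 (SD, n = 4) in control. Myh1 took 22.5% ± 0.394 and 22.7% ± 1.29, and Myh2 took 1.7% ± 0.311 and 1.74% ± 0.364. The largest difference was 0.244 percentage points for Myh4, and the exact permutation p was 0.8 for Myh4, 0.943 for Myh2 and between these for Myh1. Also in KO 2 the shares were 76.4%, 22.2% and 1.42%, close to those of the libraries with far lower totals. Of 50-base windows, 26.7% in Myh1, 26.9% in Myh2 and 18.9% in Myh4 recur in another heavy chain transcript, so the assignment of reads among these genes is uncertain.

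Markers of skeletal muscle fell into sets with different patterns. Of 20 listed markers, 7 had the pattern of the fast chains, with KO 1, KO 3 and KO 4 below KO 2 and below every control: Mylpf, Actn3, Pvalb, Mybpc1, Ryr1, Cacna1s and Myf6. In these 7, which were singled out by their values, KO 2 held 80.4% to 112% of the control mean and the other KO libraries on average 28.2% to 43%. The fast-fibre light chain Mylpf stood at 14.7, 38.0, 12.5 and 10.9 CPM in KO, while control ran from 29.9 to 38.3 CPM. Over the whole list, 17 markers were tested and 5 rose with none falling, all 5 at high level in every KO library. The share called was 29.4%, beside 27.9% over all tested genes. Atp2a1, which encodes the fast-fibre calcium pump of the sarcoplasmic reticulum, rose from 211 ± 22.3 to 2001 ± 81.5 CPM (SD, n = 4 each, 9.48-fold). The troponin genes Tnni1, Tnni2 and Tnnt1 and the calcium store protein gene Casq1 rose 13.1-fold, 5.62-fold, 6.68-fold and 4.08-fold. Without KO 2, 5 markers rose and 7 fell. The summed level of all 20 listed markers was 3949 to 4891 CPM in KO and 1662 to 1934 CPM in control. Atp2a1 alone gave 1908 to 2083 CPM of that sum in KO and 185 to 239 CPM in control, so the sum rests largely on this gene. Myod1 and Myog, the defining factors of the skeletal lineage, stood at no more than 0.324 CPM, and Myog had 0 counts in KO 1 and in controls 1, 2 and 4. The part of skeletal muscle cells in the values of the fast chains was not tested.

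**Figure D3:**
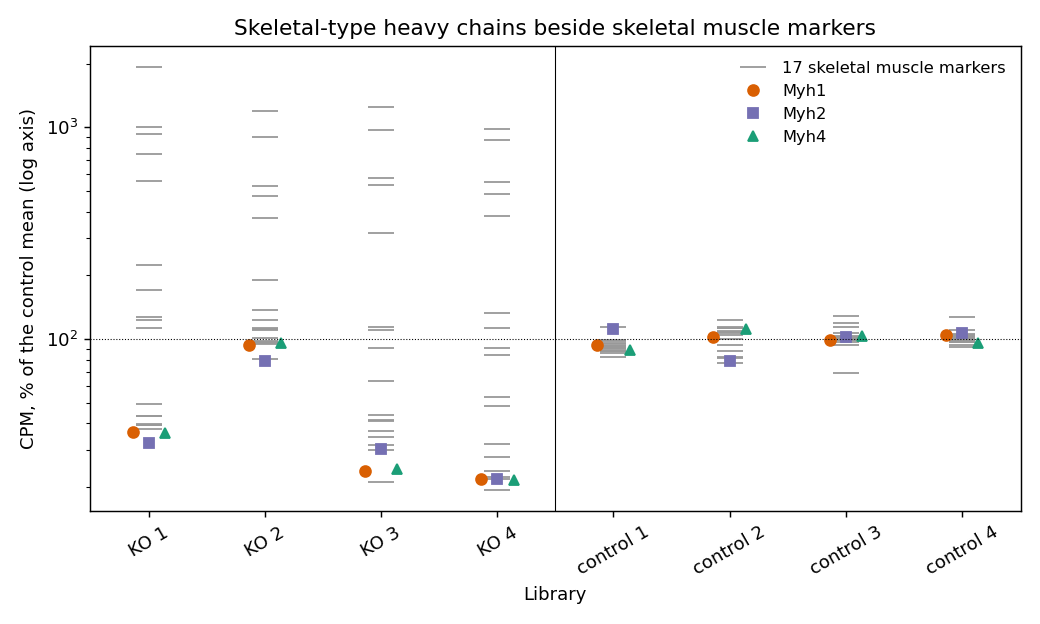
Level of Myh1, Myh2 and Myh4 (coloured points) and of the 17 tested skeletal muscle markers (grey bars) in each library, as a percent of the control mean in CPM on a log axis. The fast chains in KO 1, KO 3 and KO 4 lie between 21.7% and 36.6% of the control mean, those in KO 2 at 79% to 96.5%, while 5 markers are high in all 4 KO libraries.

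Among the other heavy chain loci, 7 of 11 listed were tested, and 1 rose with none falling (14.3% called, beside 27.9% over all tested genes). The count depended on the method, with 1 higher and 2 lower by DESeq2 and by limma-voom, 0 higher and 2 lower with no filter on low counts or without KO 2, and none called without KO 3, KO 4 or control 1, 2 or 4. Myh13, the extraocular and laryngeal chain, stood at 0.678, 0.844, 0.899 and 0.867 CPM in KO and at 0.312, 0.328, 0.587 and 0.484 CPM in control. The groups did not overlap (1.92-fold higher, log2 fold change 0.94, SE 0.29, adjusted p = 0.0296), yet the level was low and the call held in 10 of 19 alternatives. Without KO 2 its adjusted p was 0.0678 and without control 1 it was 0.0851. Myh8, the perinatal chain, ranged from 1.55 to 4.04 CPM in KO and from 3.25 to 5.12 CPM in control (log2 fold change -0.71, SE 0.26, adjusted p = 0.0661, and 0.0317 by DESeq2). Noncoding loci of the same stretch of chromosome 11 are Myhas, antisense to Myh1, and 2310065F04Rik, which lies between Myh3 and Myh2. They were lowest in KO 3 or KO 4 and at 0.595 and 0.893 CPM in KO 2, where Myhas was above every control. Their log2 fold changes were -0.87 (SE 0.59, adjusted p = 0.305) and -1.39 (SE 0.49, adjusted p = 0.0526, and 0.0263 by DESeq2). Without KO 2 both were called (adjusted p = 0.0169 and 0.00212). Embryonic Myh3 and Myh15 were at no more than 0.191 CPM and were not tested.

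The non-muscle II chains split. Myh9 and Myh10 rose in KO, while Myh14 fell. These chains build the contractile fibres of the cytoskeleton rather than sarcomeres, and Myh9 (ENSMUSG00000022443, chr15:77760587-77842175, minus strand) encodes chain IIA, Myh10 (ENSMUSG00000020900, chr11:68691559-68816632, plus strand) chain IIB and Myh14 (ENSMUSG00000030739, chr7:44605803-44670843, minus strand) chain IIC.

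Myh9 stood at 364, 301, 331 and 380 CPM in KO and at 279, 265, 274 and 262 CPM in control. Every KO library was above every control, and the KO libraries were the more spread. Means were 344 ± 35.5 CPM (SD, n = 4) and 270 ± 8.07 CPM (SD, n = 4), 1.27-fold higher (log2 fold change 0.35, SE 0.07, adjusted p = 0.00421). Against controls 1 and 2 alone the log2 fold change was 0.32 with an adjusted p of 0.0578.

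Myh10 was at 155, 180, 181 and 181 CPM in KO and at 156, 138, 149 and 156 CPM in control. KO 1 lay within the controls and the other KO libraries above them. The log2 fold change was 0.22 (SE 0.07, 95% interval 0.07 to 0.37), 1.17-fold, with an adjusted p of 0.0295. This call was lost without KO 2 (adjusted p = 0.0781), KO 3 (adjusted p = 0.0817), KO 4 (adjusted p = 0.0771), control 2 (adjusted p = 0.0727) or control 3 (adjusted p = 0.0578), and against either pair of controls alone (adjusted p = 0.12 and 0.173).

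Myh14 was at 61, 76, 81.4 and 89.9 CPM in KO and at 122, 137, 115 and 109 CPM in control. The groups were clearly apart. Means were 77.1 ± 12.2 CPM (SD, n = 4) and 121 ± 12.1 CPM (SD, n = 4), 1.57-fold lower (log2 fold change -0.65, SE 0.11, 95% interval -0.9 to -0.4, adjusted p = 0.00162).

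The non-muscle chains were also set against each other within libraries, which needs no library scaling. The log2 ratio of Myh14 to Myh9 was -2.58, -1.98, -2.02 and -2.08 in KO and -1.20, -0.95, -1.24 and -1.26 in control, a 2.01-fold difference without overlap (exact permutation p = 0.0286, adjusted p = 0.0743). The ratio of Myh9 to Myh6 was 1.91-fold higher in KO (difference 0.93 on the log2 scale, the same p-values), also without overlap. Myh10 against Myh9 overlapped (difference -0.13, exact permutation p = 0.371). Markers of non-muscle cell types moved in KO too. Of 8 fibroblast markers 5 rose and none fell, with summed levels of 7164 to 9446 CPM in KO and 6134 to 6852 CPM in control. Of 8 endothelial markers 4 rose and 1 fell (summed 1522 to 1707 CPM and 1402 to 1541 CPM), of 7 macrophage markers 4 rose and none fell (298 to 397 CPM and 244 to 306 CPM), and of 7 epicardial markers 5 rose and none fell (589 to 738 CPM and 447 to 577 CPM). Of 8 cardiomyocyte markers, 6 fell and 1 rose. The shares called were 62.5% of fibroblast, 62.5% of endothelial, 57.1% of macrophage, 71.4% of epicardial and 87.5% of cardiomyocyte markers. Over all tested genes the share was 27.9%, with 14.8% higher and 13.1% lower. The part of all these cell types in the values of Myh9, Myh10 and Myh14 was not tested.

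**Figure D4:**
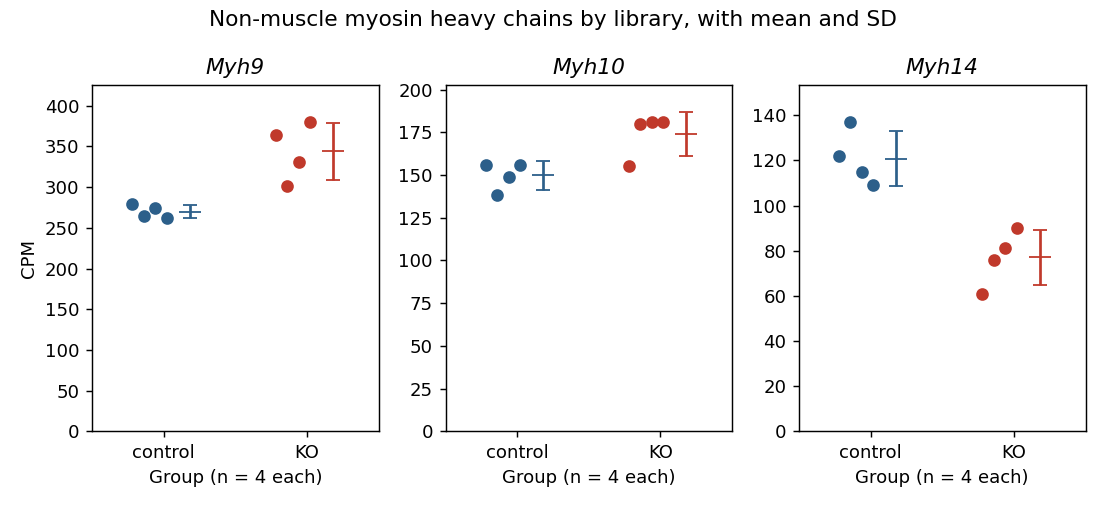
CPM of Myh9, Myh10 and Myh14 in each library (points, y axis from 0), with the mean and SD of each group beside them (n = 4). All KO libraries are above all controls for Myh9 and below all controls for Myh14, while for Myh10 KO 1 at 155 CPM lies among the controls.

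Myh11 (ENSMUSG00000018830, chr16:14194535-14291372, minus strand), the smooth muscle chain, did not pass the test. It stood at 8.52, 8.26, 9.26 and 17.4 CPM in KO and at 14.1, 19.4, 12.5 and 17.3 CPM in control. Of the KO libraries, 3 lay below every control and KO 4 lay among them. The log2 fold change was -0.54 (SE 0.25, 95% interval -1.12 to 0.03, adjusted p = 0.151), and without KO 4 it was -0.87 (adjusted p = 0.00206). KO 4 also differed in adipocyte markers, with a summed level of 78.5 CPM against 6.59 to 11.7 CPM in the other KO libraries and 7.69 to 9.1 CPM in control.

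Myh11 was set beside listed markers of smooth muscle. Of 11 smooth muscle markers 5 rose and 2 fell (63.6% called, beside 27.9% over all tested genes). The summed level of the 11 was 2105 to 2691 CPM in KO and 1729 to 2068 CPM in control. Des alone gave 1118 to 1512 CPM of that sum in KO and 832 to 1029 CPM in control, so the sum rests largely on this gene. Acta2, smooth muscle actin, fell from 203 ± 99.5 to 76.3 ± 20.5 CPM (SD, n = 4 each), while Tagln and Cnn1, actin-binding proteins of smooth muscle, rose 4.06-fold and 3.62-fold. Tagln was low in both groups, at 0.669 ± 0.2 CPM in control and 2.73 ± 0.251 CPM in KO (SD, n = 4 each). Relative to the mean log2 level of the 11 markers, Myh11 was 2.12-fold lower in KO without overlap (-2.76, -2.56, -2.45 and -1.73 against -1.46, -0.93, -1.47 and -1.32 on the log2 scale, exact permutation p = 0.0286, adjusted p = 0.0743). This ratio depends on the markers listed, which moved both ways. The log2 fold changes of Tagln, Cnn1, Tpm2, Lmod1 and Des were 2.02, 1.86, 1.21, 0.86 and 0.42. Those of Acta2 and Rgs5 were -1.41 and -0.42, beside -0.54 for Myh11, which was not called.

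Levels of different genes were compared per length, as RPKM (CPM per kilobase of exon). In control, Myh6 at 6020 RPKM was followed by Myh4 (56.4), Myh7 (31.5), Myh9 (20.9), Myh14 (16.6), Myh1 (16.0), Myh10 (14.3), Myh11 (2.08), Myh2 (1.08) and Myh7b (0.711). Within control libraries, Myh14 was not apart from Myh1, nor Myh2 from Myh7b. In KO, Myh6 at 4013 RPKM was followed by Myh9 and Myh7 (26.6 each), Myh4 (25.1), Myh10 (16.7), Myh14 (10.6), Myh1 (7.02), Myh11 (1.43), Myh7b (0.605) and Myh2 (0.44). There, Myh9, Myh7, Myh4 and Myh10 could not be set in order from neighbour to neighbour, nor Myh14 and Myh1, nor Myh7b and Myh2. Myh6 held 97.4% of the summed RPKM of the 10 genes in control and 97.2% in KO.

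**Figure D5:**
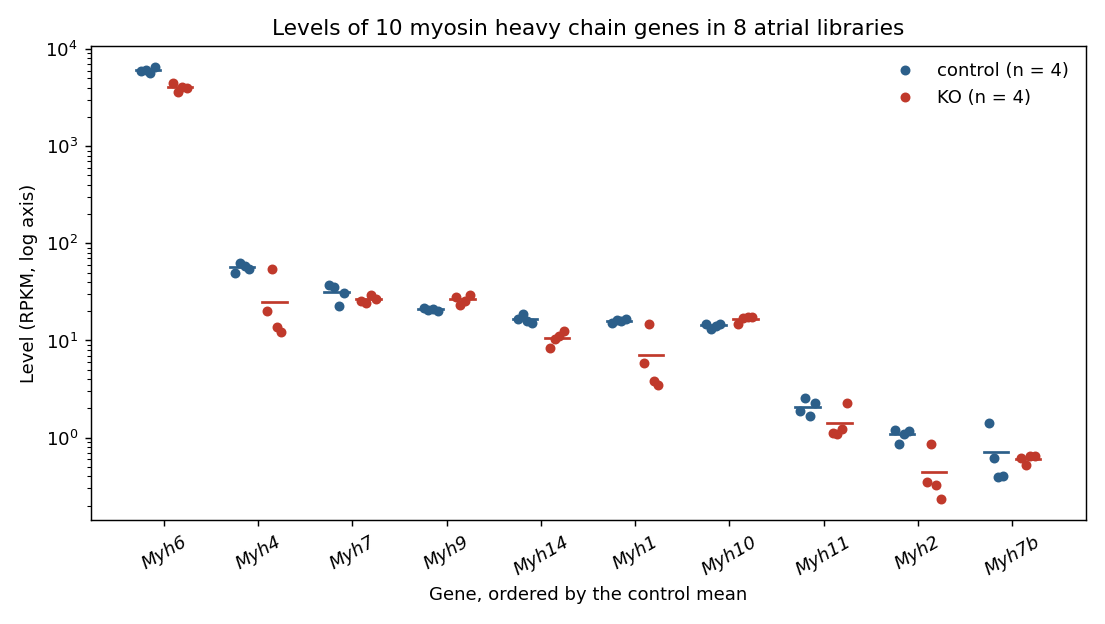
RPKM of each heavy chain gene in each library (points, log axis) with the group mean as a bar, ordered by the control mean. Myh6 lies far above the rest in both groups, at 6020 RPKM in control and 4013 RPKM in KO, and KO 2 is the high KO point of Myh4, Myh1 and Myh2.

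Genes that work with the heavy chains were read from lists. Of 11 tested myosin light chain genes, 1 rose, 3 fell and 7 did not pass, with a median log2 fold change of -0.06. The share called was 36.4%, beside 27.9% over all tested genes. The atrial regulatory chain Myl7 fell from 4043 ± 247 to 1748 ± 180 CPM (SD, n = 4 each, adjusted p = 1.25e-06). Myl4, the atrial essential chain and partner of the alpha heavy chain, fell from 5823 ± 515 to 3569 ± 367 CPM (adjusted p = 0.000124), and Myl9, a smooth and non-muscle regulatory chain, from 741 ± 133 to 527 ± 71.5 CPM (adjusted p = 0.0191). Myl3, the ventricular and slow-muscle essential chain, rose from 295 ± 140 to 724 ± 102 CPM (adjusted p = 0.0208). Among the 4 libraries of each group, Myl7, Myl4 and Myl3 did not overlap.

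Of 21 genes for heavy chain folding, thick filament structure and turnover, 2 rose and 8 fell (median log2 fold change -0.16). The share called was 47.6%, beside 27.9% over all tested genes. Mybph, a relative of cardiac myosin-binding protein C, rose from 0.299 ± 0.0859 to 8.8 ± 1.09 CPM, 29-fold (adjusted p = 3.98e-08). Trim63, a ubiquitin ligase of muscle that acts on myosin, fell from 260 ± 20.7 to 109 ± 9.06 CPM (adjusted p = 6.3e-07). Myom2, a protein of the M-band that links thick filaments, fell by 0.49 on the log2 scale (adjusted p = 0.000612).

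Of 13 genes of light chain phosphorylation, 1 rose and 3 fell, 30.8% called beside 27.9% over all tested genes (median -0.03). Rock1, a kinase that favours non-muscle myosin activity, fell by 0.4 on the log2 scale (adjusted p = 0.000515), while Ppp1r12a, the targeting subunit of myosin phosphatase, rose by 0.27 (adjusted p = 0.00358). Mylk3, the cardiac light chain kinase, fell by 0.26 (adjusted p = 0.0137) and Mylk4 by 0.65 (adjusted p = 0.0386).

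Of 27 genes known to regulate heavy chain transcription, none rose and 9 fell, 33.3% called beside 27.9% over all tested genes (median -0.17). Rxrg, a partner of thyroid hormone receptors, fell from 28.4 ± 2.4 to 11.9 ± 0.328 CPM (adjusted p = 6.43e-07), and Tbx5, the T-box factor of atria, from 305 ± 7.49 to 195 ± 12 CPM (adjusted p = 1.24e-05). Hopx fell by 0.55 (adjusted p = 6.55e-05) and Eya1, a cofactor of fast-fibre genes, by 0.67 (adjusted p = 0.00179) on the log2 scale. With library totals alone, 3 of the 27 rose and 7 fell, and in the light chain list 3 rose and 3 fell.

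After the group means were taken away, the genes that followed a heavy chain most closely over the 8 libraries were listed as a description, among 9695 genes (9696 for Myh2) with a mean of at least 10 CPM. For Myh6 these were Bccip (Pearson r = 0.982), Usp24, Tnnt2 (r = 0.968), Myo18b and Med25, of which Tnnt2, cardiac troponin T, and Myo18b are sarcomere genes. For Myh7 they were Mhrt (r = 0.986), Atg4b, Top3b, Fam160a2 and Mir208b (r = 0.955). Of these, Mhrt and Mir208b lie at the Myh7 gene, and Mhrt shares exon bases with it. For Myh2 they were Suz12 (r = 0.951), Myh1 (r = 0.928), Cstf2, Ddhd2 and Thap12. For Myh10 they were Gm20559 (r = 0.97), BC002163, Tmem181a, Cdkn1a and Bloc1s6, and for Myh11 Arih1 (r = 0.972), Arhgef12, Dag1, Eps15 and D630003M21Rik. Each is among the highest of 9695 values over 8 libraries and carries no test.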

How the data were processed

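The authors deposited raw read counts as whole numbers, 1 column per library and 1 row per gene. Per the submitters' processing notes, STAR, DESeq2 and the mouse build mm10 were used. The counting tool, strand setting and annotation are not stated in the sources used here. Each column was assigned to a sample through its vector and number.

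In R 4.3.3, counts were fitted with edgeR 4.0.16 (limma 3.58.1) by the robust quasi-likelihood test with TMM factors and no covariate. Genes were kept by filterByExpr (minimum count 10, minimum total count 15). Log2 CPM used a prior count of 2. Of 54532 identifiers, 54495 were in GENCODE M21, whose coordinates, on GRCm38, and exon lengths were used. Shares and ratios were taken from counts without correction for gene length. They were compared by exact two-sided permutation of the 8 libraries (70 regroupings) and adjusted over 13. The fit was tested on simulated data. Chi-square per degree of freedom between libraries of 1 group was 12.3 to 31.1, where copies would give about 1, and each was counted as its own sample.

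The members and gene lists were chosen with earlier results of these data known. The text names all 10 members, every tested locus of the list of other heavy chain loci, up to 4 genes with the smallest p of each other pathway list, markers whose level moved with a member, and for Myh6, Myh7, Myh2, Myh11 and Myh10 the 5 most closely correlated genes. A gene under this rule is not reported here by name, though it stayed in every fit and count. Alternatives covered scalings, DESeq2 1.42.0, limma-voom with quality weights, filters, a replicate block, each library left out, KO 2 and control 2 left out, either pair of controls by name prefix, and Y-linked expression as a covariate.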

Additional observations from a re-analysis of the deposited data

Results flagged for a closer look

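Within-group outliers were sought by Dixon's criterion at the 95% level in 60 groups of 4 libraries, and 5 groups held one, where chance gives about 1 in 20. Myh10 stood at 155 CPM in KO 1, below the 180 to 181 CPM of the other KO libraries. Myh11 stood at 17.4 CPM in KO 4, where the remaining KO libraries had 8.26 to 9.26 CPM. The antisense locus Myhas stood at 0.504 CPM (20 counts) in control 2, above 0.39 to 0.408 CPM (15 to 16 counts) in the other controls. The log2 ratio of Myh14 to Myh9 was -2.58 in KO 1, below -2.08 to -1.98 in the other KO libraries. The log2 ratio of Myh9 to Myh6 was -6.13 in KO 4, above -6.36 to -6.34 in the other KO libraries. The skeletal-type chains in KO 2 fell just short of this criterion.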

How the results depend on the processing

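Each member was refitted under 20 alternatives, and 197 of the 200 values kept the direction of the fit reported. The calls on Myh6 and Myh14 held in all 20, with log2 fold changes of -0.64 to -0.51 and -0.77 to -0.56, and that on Myh9 in 19. The number of members called was 5, and 3 to 6 when 1 library was left out (3 without KO 3, 6 without KO 2), 3 against controls 1 and 2 alone and 3 against controls 3 and 4 alone. The log2 fold change of Myh7b turned to 0.359 without control 1, the single such turn among its leave-one-out values (-0.434 to 0.359), to 0.58 against controls 3 and 4 alone and to 0.118 with Y-linked expression as a covariate. That of Mhrt, 0.01 in the fit reported, turned to -0.27 against controls 1 and 2 alone and ranged from -0.137 to 0.143 when 1 library was left out. The value of Mir208a turned to 0.116 and that of Mir208b to 0.158 against controls 3 and 4 alone, and Mir208b ranged from -0.273 to 0.048 with 1 library left out. None of these was called. The cause was not tested.

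The labels give KO and control samples the same numbers 1 to 4. Deviations of same-numbered libraries correlated at -0.015, 0.303, -0.056 and 0.105, above the values with other numbers for number 2 alone, so the numbers were not taken to pair the samples. With the replicate block 4757 genes were called in place of 5032, and 4 members in place of 5, Myh10 being lost (adjusted p = 0.053). With it Myh8 (adjusted p = 0.0411) and 2310065F04Rik (adjusted p = 0.03) were called lower. Depth limits the least abundant loci, where 3 counts were worth 0.0744 to 0.0885 CPM.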
